A study of Rattus norvegicus with 9 samples.

Results

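Nrf2, encoded by Nfe2l2, is the transcription factor that switches on genes for antioxidant and detoxifying enzymes, and Keap1 is the adaptor that holds it in check. The 2 genes were followed here with 7 textbook Nrf2 targets: Nqo1, Gclc, Gclm, Txnrd1, Srxn1, Slc7a11 and Prdx1. These 9 genes were chosen by name, with earlier results of these data known, from gene tables of rat striatal tissue. Read counts for 8 of them, out of 22890 genes in the tables, were analysed, and all 8 passed the filter on low counts. Srxn1, the enzyme that repairs overoxidized peroxiredoxins, was not analysed here.

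Messenger RNA of striatal tissue from rats (Rattus norvegicus) was sequenced in 9 libraries, 3 per group. Sham was the control group, ICH the group with intracerebral hemorrhage, which is bleeding into brain tissue, and EDB the group labelled with edaravone dexborneol, which combines the free radical scavenger edaravone and dexborneol. The labels give no strain, age, sex, dose or time, and do not say whether EDB rats also had a hemorrhage or whether libraries came from separate animals. EDB was therefore compared with both other groups, and p-values measure the spread between these samples, which may be technical.

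Under resting conditions Keap1 presents the Nrf2 protein to a Cul3 ubiquitin ligase, and the protein is degraded. Oxidants and electrophiles modify cysteines of Keap1, upon which Nrf2 accumulates, pairs with a small Maf protein and binds antioxidant response elements (ARE) near its target genes. Much of this control acts on the protein, which RNA counts do not measure. In brain the pathway is best known from glia, above all astrocytes, which supply neurons with glutathione precursors.

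Promoter sequences of the 9 genes were taken from RefSeq on the build GRCr8, and 9 of 9 symbols matched, with 10 start sites because Txnrd1 has 2. Each window holds 250 bases before and 50 after the start. The windows were searched on both strands for the core of the response element, TGACNNNGC, read on the other strand as GCNNNGTCA. It was found in 4 of the 10 windows, and in 12.1% of all 33469 rat promoter windows of that length. The matching stretches of 30 bases are shown because they hold the letters of this core, with the match in capitals. Whether Nrf2 binds them was not tested.
Gclm, chr2:213031952-213031981, plus strand: gtgcggtttctGCTTAGTCAttgtcttcca
Prdx1, chr5:135383760-135383789, plus strand: ccagggaaagcGCTGAGTCAtaccccgccg
Txnrd1, one of its starts, chr7:22755964-22755993, minus strand: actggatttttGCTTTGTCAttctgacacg
Nfe2l2, chr3:81028950-81028979, minus strand: actgctccgactagccatTGACGCCGCctc
The match began 172 bases before the start in Gclm, 135 before in Prdx1, 78 before in Txnrd1 and 38 after in Nfe2l2. In Gclm, Prdx1 and Txnrd1 it lay on the strand opposite to the gene. The Prdx1 match overlaps the letters TGAGTCA, which fit the related AP-1 motif TGANTCA. That motif was in 2 of the 10 windows, those of Prdx1 and Srxn1, and in 7.33% of all windows. The letters of the core were not in the windows of Nqo1, Gclc, Slc7a11, Keap1 and Srxn1. This says nothing about elements farther away or with other letters, which were not searched for.

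Gclm and Prdx1 were the members with the most similar pattern over the libraries, as described below. Whether the core had a part in that likeness was not tested. The 250 bases before the start of both genes are given whole, 5′ to 3′ on the plus strand, with the core in capitals.
Gclm, chr2:213031885-213032134: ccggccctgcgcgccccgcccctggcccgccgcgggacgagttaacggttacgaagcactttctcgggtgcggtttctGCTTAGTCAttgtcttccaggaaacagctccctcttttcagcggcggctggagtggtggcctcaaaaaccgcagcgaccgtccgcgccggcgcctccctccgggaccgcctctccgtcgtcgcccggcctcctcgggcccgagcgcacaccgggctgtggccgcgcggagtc
Prdx1, chr5:135383656-135383905: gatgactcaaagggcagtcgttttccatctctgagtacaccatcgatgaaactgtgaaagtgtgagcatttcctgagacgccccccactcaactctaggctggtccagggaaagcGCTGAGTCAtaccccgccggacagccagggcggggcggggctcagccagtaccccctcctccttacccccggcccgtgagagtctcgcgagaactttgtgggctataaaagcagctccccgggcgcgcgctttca

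The libraries held between 14658110 and 17659936 counts. Striatal projection neuron markers summed to between 5173 and 11933 CPM, which are counts scaled to a common library size, and the label of the tissue was not contradicted. The groups differed in these markers, as given with the other cell types below. Sham 2 stood apart from the other Sham libraries along the second principal component (-36.3 against 31.7 and 35.1). ICH 1 held 0 counts of the Y-linked genes Kdm5d and Eif2s3y, which were found in the other 8 libraries. EDB 3 held 6684 CPM of the choroid plexus gene Ttr, against at most 52.5 CPM elsewhere. Results are therefore also given without Sham 2, ICH 1 and EDB 3 together where that changes them.

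The first comparison, of ICH with Sham, asked how the pathway's transcripts differed in striatum after hemorrhage. Nfe2l2 and 4 of its targets rose, Nqo1, Gclm, Slc7a11 and Prdx1, which makes 5 of 8 members risen and 0 fallen. Across all 14274 genes tested, 18.7% were called, 11.4% risen and 7.3% fallen. Keap1, Gclc and Txnrd1 did not pass the test. A call means an adjusted p under 0.05 over all genes tested by edgeR's quasi-likelihood test, and changes are log2 fold changes ± SE with n = 3 against 3. The median log2 fold change of the 8 was 0.67, against 0.0066 over all genes tested. All libraries of ICH lay above all of Sham in 6 members (20.2% of all genes) and below them in 1, Keap1 (15.4% of all genes).

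Transcripts of Nfe2l2 itself were read at 26.5, 13.5 and 29.0 CPM across Sham 1 to Sham 3, 63.1, 33.7 and 37.1 CPM across ICH 1 to ICH 3, and 25.4, 28.7 and 25.2 CPM across EDB 1 to EDB 3. Sham 2 was the lowest of all libraries and ICH 1 the highest, and no ICH library reached down to the highest Sham or EDB library. The rise from Sham to ICH was 0.96 ± 0.29 on the log2 scale (adjusted p = 0.0427). It rested in part on those libraries: the log2 fold change was 0.69 without Sham 2, 0.63 without ICH 1 and 0.35 (adjusted p = 0.162) without Sham 2, ICH 1 and EDB 3 together.

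Keap1, the inhibitor, did not pass the test in any comparison. Its levels were 121, 134 and 125 CPM across Sham 1 to Sham 3, 101, 111 and 115 CPM across ICH 1 to ICH 3, and 128, 112 and 126 CPM across EDB 1 to EDB 3. Every ICH library lay below every Sham library, while EDB overlapped both. The log2 fold change of ICH against Sham was -0.22 ± 0.11 (adjusted p = 0.198), with a 95% interval from -0.46 to 0.021. Read counts of Nfe2l2 per count of Keap1, a ratio that does not depend on library scaling, ran from 0.101 to 0.232 in Sham, from 0.304 to 0.627 in ICH and from 0.199 to 0.256 in EDB. The ICH ratios lay above all others, with ICH 1 the highest, and EDB overlapped Sham.

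**Figure D1:**
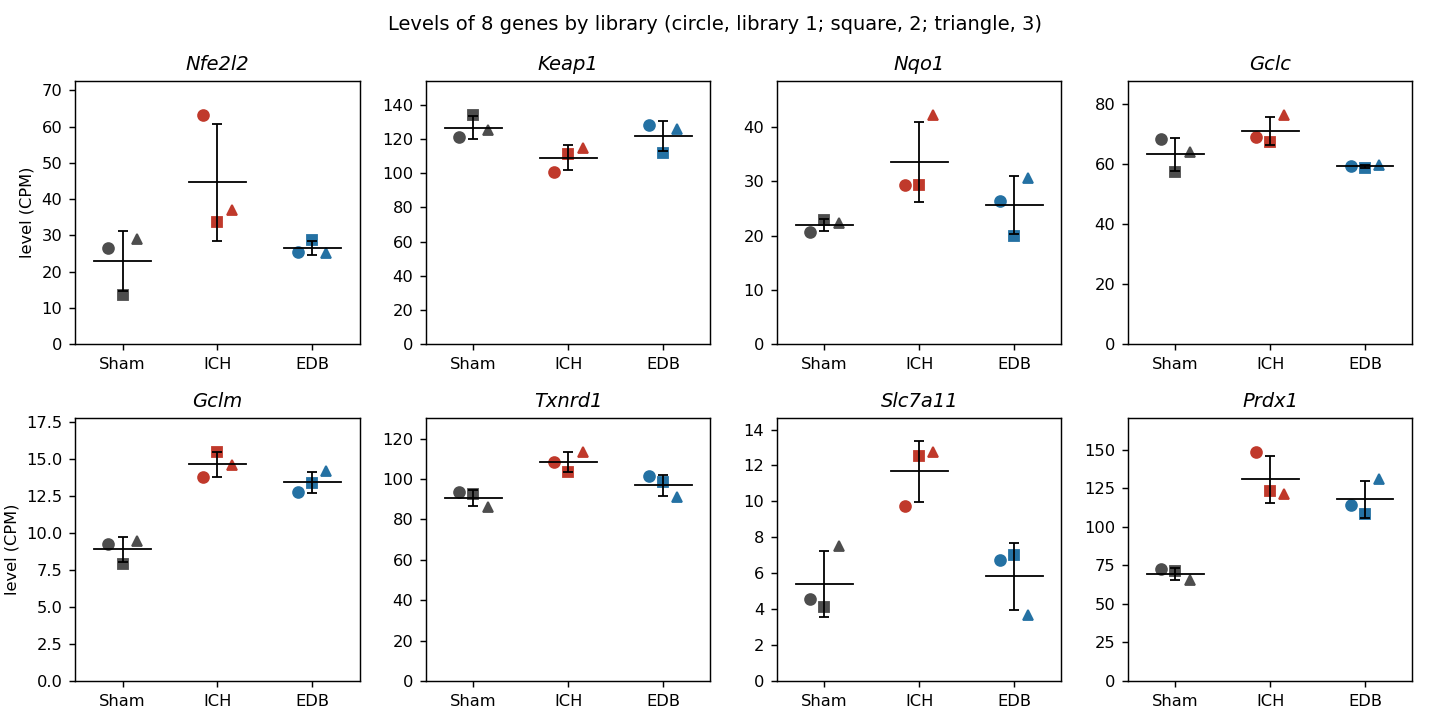
Level in CPM of each of the 8 genes in every library, with the group mean as a line and the SD as a bar (n = 3). Gclm and Prdx1 in EDB lie above all Sham libraries, whereas Nfe2l2 and Slc7a11 in EDB overlap Sham, and ICH 1 stands high for Nfe2l2.

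Glutathione is made from glutamate, cysteine and glycine, and its first step is carried out by glutamate-cysteine ligase, whose catalytic subunit is Gclc and whose modifier subunit is Gclm. Gclm stood at 9.25, 7.93 and 9.49 CPM across Sham 1 to Sham 3, at 13.8, 15.5 and 14.6 CPM across ICH 1 to ICH 3, and at 12.7, 13.4 and 14.2 CPM across EDB 1 to EDB 3. All 6 libraries of ICH and EDB lay above the 3 Sham libraries. Gclm rose in ICH against Sham by 0.72 ± 0.16 (adjusted p = 0.010), and this call held with each library left out in turn.

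The catalytic subunit moved less. Gclc levels were 68.4, 57.5 and 63.9 CPM across Sham 1 to Sham 3, 69.2, 67.3 and 76.3 CPM across ICH 1 to ICH 3, and 59.4, 58.6 and 59.7 CPM across EDB 1 to EDB 3. ICH overlapped Sham, and the log2 fold change was 0.16 ± 0.11 (adjusted p = 0.353, 95% interval -0.080 to 0.41). Gclm counts per Gclc count ran from 0.135 to 0.148 in Sham, from 0.192 to 0.230 in ICH and from 0.215 to 0.238 in EDB. Within each library, then, the modifier transcript was more abundant relative to the catalytic one in ICH and EDB than in any Sham library. No test was made of this ratio.

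**Figure D2:**
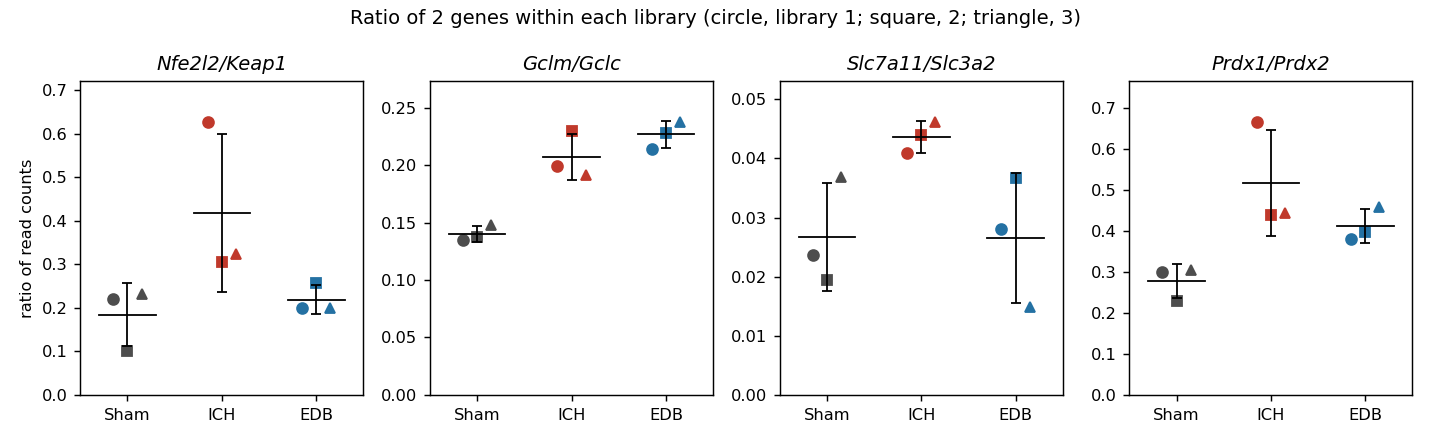
Ratio of the read counts of 2 genes within each library, with the group mean and SD (n = 3). Gclm per Gclc is higher in all ICH and EDB libraries than in Sham (at most 0.148), while Nfe2l2 per Keap1 and Slc7a11 per Slc3a2 in EDB overlap Sham.

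Slc7a11 is the light chain of system xc-, the exchanger that brings in cystine for glutathione and releases glutamate. It stood at 4.56, 4.10 and 7.50 CPM across Sham 1 to Sham 3, at 9.74, 12.5 and 12.7 CPM across ICH 1 to ICH 3, and at 6.74, 7.01 and 3.69 CPM across EDB 1 to EDB 3. These are 59 to 236 counts per library. All ICH libraries were above all others, EDB 3 was the lowest of the 9, and EDB overlapped Sham. Slc7a11 had the largest change among the members in ICH against Sham, 1.11 ± 0.31 (adjusted p = 0.0283). Slc7a11 counts per count of its heavy chain Slc3a2 ran from 0.0194 to 0.0369 in Sham, 0.0408 to 0.0462 in ICH and 0.0148 to 0.0367 in EDB.

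Prdx1 is a cytosolic peroxiredoxin, an abundant enzyme that removes hydrogen peroxide. Its levels were 72.4, 71.1 and 65.3 CPM across Sham 1 to Sham 3, 149, 123 and 121 CPM across ICH 1 to ICH 3, and 114, 108 and 131 CPM across EDB 1 to EDB 3. The Sham libraries lay close together and below all 6 others. The rise in ICH against Sham, 0.91 ± 0.12 (adjusted p = 0.000533), had the smallest adjusted p of the members and held with each library left out in turn. Prdx1 counts per count of its relative Prdx2, the peroxiredoxin of neurons, ran from 0.230 to 0.304 in Sham, from 0.439 to 0.665 in ICH and from 0.380 to 0.458 in EDB.

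Nqo1 reduces quinones by transferring electrons in pairs, and it is among the most used reporters of Nrf2. It stood at 20.7, 22.8 and 22.4 CPM across Sham 1 to Sham 3, at 29.3, 29.3 and 42.1 CPM across ICH 1 to ICH 3, and at 26.4, 19.9 and 30.6 CPM across EDB 1 to EDB 3. ICH 3 was the highest, all ICH libraries lay above Sham, and EDB spread over both. The rise in ICH against Sham was 0.61 ± 0.19 (adjusted p = 0.0492), or 0.42 without ICH 3.

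Txnrd1 is the cytosolic selenoprotein that keeps thioredoxin reduced. Its levels were 93.3, 92.8 and 85.9 CPM across Sham 1 to Sham 3, 109, 103 and 113 CPM across ICH 1 to ICH 3, and 101, 98.4 and 91.1 CPM across EDB 1 to EDB 3. The ICH libraries lay above the Sham libraries by a small step. The log2 fold change was 0.26 ± 0.10 (adjusted p = 0.109, 95% interval 0.032 to 0.48). With scaling by library size alone it was called, at 0.35 (adjusted p = 0.0403), and the median of all genes was then 0.10.

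The calls differed in how far they rested on single libraries. Gclm and Prdx1 kept theirs with each of the 9 libraries left out. The call of Slc7a11 went without Sham 1 or 2, or ICH 2 or 3 (adjusted p between 0.0767 and 0.0983). For Nfe2l2 the call went without Sham 1 or 2, ICH 1 or 3, or EDB 1, 2 or 3 (adjusted p between 0.0515 and 0.174). For Nqo1 this happened without Sham 1, 2 or 3, ICH 1, 2 or 3, or EDB 1 (adjusted p between 0.0577 and 0.184). The number of members risen was 2 without Sham 1 or 2, or ICH 3, and 3 without ICH 1 or 2, or EDB 1. Calls over all genes were fewer too, from 1769 to 2624 with 1 library left out against 2670 with all 9. The 5 members had a positive log2 fold change under each of these settings.

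**Figure D3:**
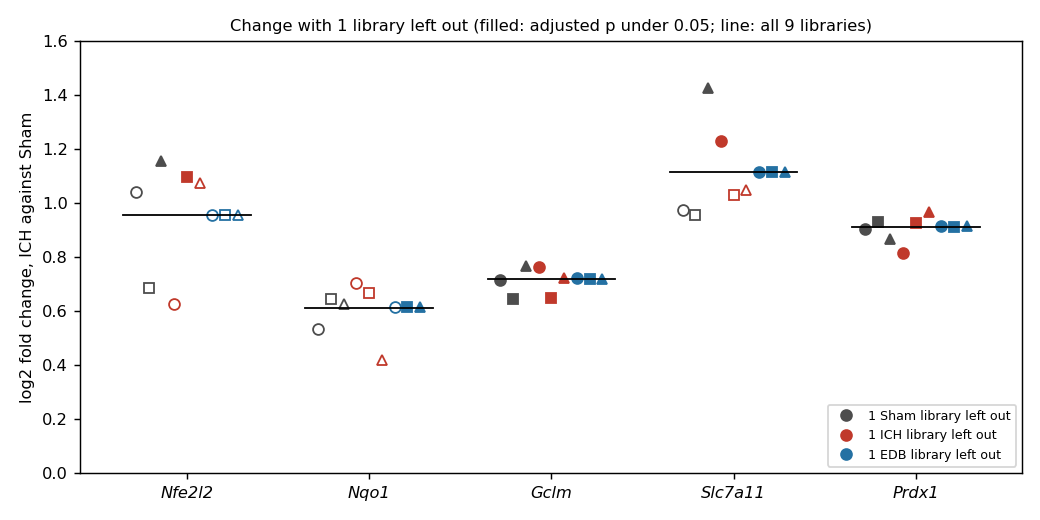
Log2 fold change of ICH against Sham for the 5 risen genes with 1 library left out (circle, library 1; square, library 2; triangle, library 3), the line marking the value from all 9 libraries. Points of Gclm and Prdx1 stay filled throughout, and Nfe2l2 ranges from 0.63 to 1.16.

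EDB and ICH were compared to ask how the pathway's transcripts stood in the group named for the drug. In edgeR's test 0 of 8 members were called, beside 0.687% of all genes (0.056% higher and 0.631% lower in EDB). At an unadjusted p under 0.05 there were 3, Nfe2l2, Gclc and Slc7a11, each lower in EDB, beside 16.2% of all genes. DESeq2 called 1 of the 8, beside 4.88% of all genes, and limma-voom 0, beside 1.28%. The median log2 fold change of the 8 members was -0.21, against -0.033 over all genes tested. A negative sign was found in 7 of 8, beside 7678 of the 14274 genes tested. All EDB libraries lay below all ICH libraries in 4 members, Nfe2l2, Gclc, Txnrd1 and Slc7a11, beside 13.6% of all genes.

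The value farthest from 0 was that of the cystine exchanger Slc7a11, at -1.0 ± 0.31 (adjusted p = 0.149, 95% interval -1.68 to -0.33), and this is the gene that DESeq2 called (adjusted p = 0.0470). Its mean level was 11.7 ± 1.68 CPM in ICH and 5.82 ± 1.85 CPM in EDB (SD, n = 3). Nfe2l2 had -0.76 ± 0.29 (adjusted p = 0.231, 95% interval -1.39 to -0.12), or -0.42 without ICH 1. Gclc had -0.26 ± 0.11 and Txnrd1 -0.16 ± 0.10 (adjusted p = 0.279 and 0.467). For Nqo1 the value was -0.39 ± 0.19 (95% interval -0.81 to 0.032), or -0.19 without ICH 3 and -0.24 without EDB 2. For Keap1 it was 0.16 ± 0.11. Nqo1, Keap1, Gclm and Prdx1 overlapped between ICH and EDB. Gclm had -0.12 ± 0.16 (95% interval -0.47 to 0.22) and Prdx1 -0.15 ± 0.12 (95% interval -0.42 to 0.12). Whether Gclm and Prdx1 differ in this from Slc7a11 was not tested.

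EDB and Sham were compared to ask which transcripts differed between the group named for the drug and the controls. Gclm and Prdx1 rose, 2 of 8 members, beside 7.66% of all genes called, 4.95% risen and 2.71% fallen. They were also the members with no overlap between the groups (15.1% of all genes were higher without overlap). Prdx1 had 0.76 ± 0.12 (adjusted p = 0.00427), a call that held with each library left out in turn. Gclm had 0.60 ± 0.16 (adjusted p = 0.0482), and its call was lost with each of the 9 libraries left out in turn (adjusted p between 0.0587 and 0.134). The other 6 overlapped with Sham: Nqo1 had 0.22 ± 0.19, Nfe2l2 0.20 ± 0.29, Slc7a11 0.11 ± 0.31, Txnrd1 0.096 ± 0.10, Keap1 -0.054 ± 0.11 and Gclc -0.096 ± 0.11. The interval was wide for Nfe2l2 (-0.44 to 0.84) and Slc7a11 (-0.57 to 0.80). The first and second comparisons share the ICH libraries. EDB against Sham shares the Sham libraries with the first and the EDB libraries with the second, so the 3 are not independent.

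**Figure D4:**
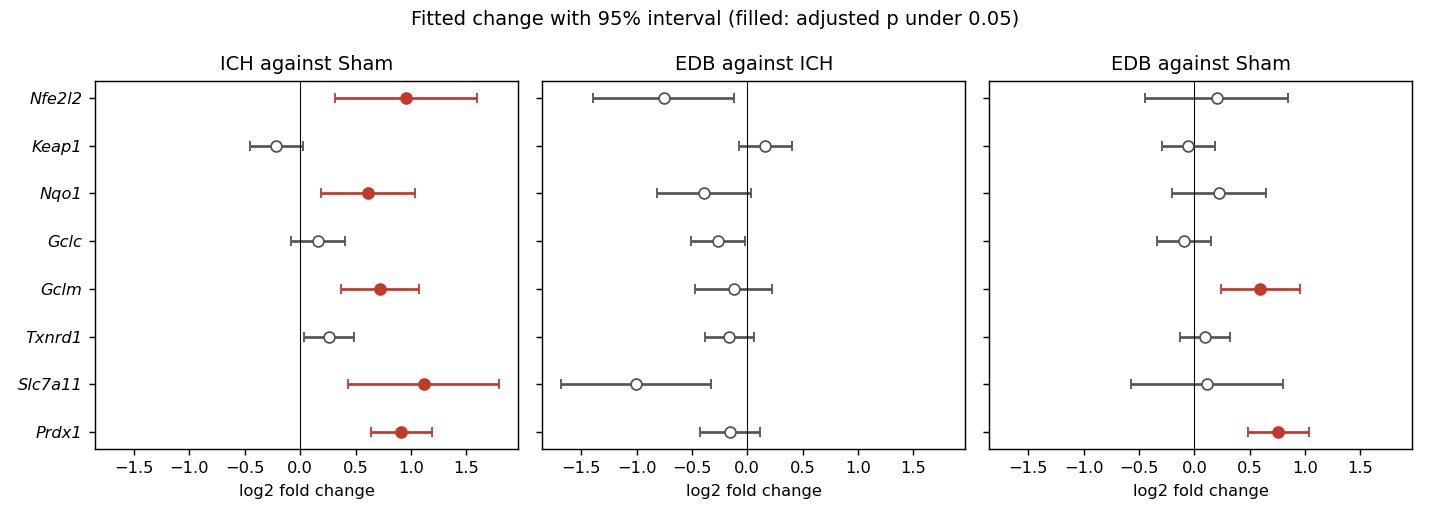
Log2 fold change of each of the 8 genes in the 3 comparisons, with its 95% interval (n = 3 against 3). Filled points passed an adjusted p of 0.05: 5 in ICH against Sham, 0 in EDB against ICH, and Gclm and Prdx1 in EDB against Sham.

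The mean level was highest in ICH in 7 members, and in Keap1 it was lowest there. Sham and EDB stood next to each other without separating in Nfe2l2 (23.0 ± 8.34 and 26.4 ± 1.93 CPM), Slc7a11 (5.39 ± 1.85 and 5.82 ± 1.85 CPM) and Nqo1 (22.0 ± 1.14 and 25.6 ± 5.37 CPM). In Gclc the order of these groups was turned (63.3 ± 5.48 CPM in Sham and 59.2 ± 0.587 CPM in EDB), within their spread. In Gclm and Prdx1 it was ICH and EDB that did not separate (14.6 ± 0.830 and 13.4 ± 0.726 CPM for Gclm, 131 ± 15.2 and 118 ± 12 CPM for Prdx1). Nqo1 and Keap1 in EDB overlapped ICH as well as Sham.

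Likeness of pattern was measured as the root mean square distance between log2 CPM values standardized over the 9 libraries, where 0 means the same pattern. Among the members Gclm and Prdx1 were nearest (0.381), and Nfe2l2 and Keap1 were farthest apart (1.83). The gene nearest to Nfe2l2 over the whole table was Cast (0.148), which encodes the calpain inhibitor calpastatin, followed by catalase (Cat, 0.157) and Nucb2 (0.180). Among the nearest to Prdx1 were Hspa2 (0.147) and the class I gene RT1-CE1 (0.161). Nearest to Gclm were the ATP-gated channel gene P2rx7 (0.186), Bst2 (0.205) and Galk2 (0.208). Keap1 lay nearest to Atp5mg (0.204), Tmem80 (0.223) and Atp5me (0.257), of which Atp5mg and Atp5me encode parts of ATP synthase. With scaling by library size only, 0 of these 3 stayed among the nearest to Keap1. Slc7a11 lay nearest to B3galnt1 (0.210), Katna1 (0.305) and Sec24b (0.312), and Txnrd1 to Mycl (0.20), Tlr8 (0.274) and Prr11 (0.277). Nqo1 lay nearest to the thioredoxin relative Nxn (0.312), Zfp423 (0.327) and Cryz (0.354), another quinone reductase. Gclc lay nearest to Rfx3 (0.330), Gas2l3 (0.333) and the thrombin receptor gene F2r (0.344). Close paralogs, such as RT1-CE1 among class I genes, may share reads.

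Other genes of the pathway were read from 5 lists with 75 tested genes. In ICH against Sham 15 rose, 3 fell and 57 were not called, so that 24% were called beside 18.7% of all genes, and the median log2 fold change was 0.12 beside 0.0066. In EDB against ICH 0 were called by edgeR's test, with 14 at an unadjusted p under 0.05, which is 18.7% of the lists beside 16.2% of all genes. DESeq2 called 7 of the 75 and limma-voom 2, beside 4.88% and 1.28% of all genes. In EDB against Sham 8 rose, 2 fell and 65 were not called, so that 13.3% were called beside 7.66% of all genes.

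Among 13 tested partners and regulators of Nrf2, 1 rose, 1 fell and 11 were not called in ICH against Sham. Mafg, a small Maf protein that pairs with Nrf2 on DNA, fell by 0.70 ± 0.11 (adjusted p = 0.00159). Bach1, the haem-binding repressor that occupies the same elements, rose by 0.76 ± 0.23 (adjusted p = 0.0406), a call lost without Sham 1 or 2, ICH 1, 2 or 3, or EDB 1 (adjusted p between 0.0541 and 0.129). The small Maf gene Maff had 1.06 ± 0.34 (adjusted p = 0.0532), and was called without EDB 2 (adjusted p = 0.0174). The Nrf2 relative Nfe2l1 had -0.26 ± 0.11, and Dpp3, which binds Keap1, had 0.21 ± 0.13. In EDB against Sham Mafg fell as well, by 0.59 ± 0.11 (adjusted p = 0.0103, or 0.0581 without EDB 1).

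Of 22 tested genes of glutathione synthesis and use, 4 rose, 2 fell and 16 were not called in ICH against Sham. The microsomal glutathione transferase Mgst1 rose by 1.70 ± 0.23, Oplah, which returns 5-oxoproline to glutamate, by 1.42 ± 0.15, the glutathione peroxidase Gpx1 by 0.94 ± 0.15 and the glutaredoxin Glrx by 0.70 ± 0.14. These 4 calls held with each library left out in turn (adjusted p with all libraries from 9.11e-05 to 0.00497). Mgst3 fell by 0.60 ± 0.17 (adjusted p = 0.0301), a call lost without Sham 2, or ICH 1, 2 or 3 (adjusted p between 0.0619 and 0.0953), and the log2 fold change was -0.36 without Sham 2. Glrx2 fell too, by 0.40 ± 0.13 (adjusted p = 0.0492), a call lost without any one library other than Sham 2 (adjusted p between 0.0551 and 0.156). In EDB against Sham Oplah (0.98 ± 0.15, adjusted p = 0.00257) and Gpx1 (0.55 ± 0.15, adjusted p = 0.0481) rose, and Gpx1 lost this call without Sham 1 or 3, ICH 1, 2 or 3, or EDB 1 or 3 (adjusted p between 0.0524 and 0.177).

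The thioredoxin and peroxiredoxin cycle had 13 tested genes beside the members, of which 3 rose, 0 fell and 10 were not called in ICH against Sham. They were Prdx4, the peroxiredoxin of the endoplasmic reticulum (0.90 ± 0.20, adjusted p = 0.0107), the stress gene Sesn2 (0.85 ± 0.17, adjusted p = 0.00549) and Txnip, which binds and inhibits thioredoxin (0.83 ± 0.19, adjusted p = 0.0130). Thioredoxin itself (Txn1) had 0.44 ± 0.15 (adjusted p = 0.0626, called at 0.0339 without EDB 2), and Prdx6 had 0.27 ± 0.12. Prdx4 (0.81 ± 0.20), Txnip (0.77 ± 0.19) and Sesn2 (0.68 ± 0.17) rose in EDB against Sham too. Each lost that call without certain libraries: Prdx4 without Sham 2 or 3, ICH 2 or 3, or EDB 1 or 3, Txnip without Sham 2 or 3, ICH 2, or EDB 1 or 3, and Sesn2 without Sham 1 or 3, ICH 2, or EDB 1 (adjusted p over the 3 genes between 0.0516 and 0.141).

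Among 16 further textbook Nrf2 targets 6 rose, 0 fell and 10 were not called in ICH against Sham. Haem oxygenase 1 (Hmox1), which Bach1 represses and Nrf2 activates, rose by 5.45 ± 0.48 (adjusted p = 5.86e-05). Of the pentose phosphate enzymes, which supply NADPH, Taldo1 rose by 0.73 ± 0.14 and Tkt by 0.56 ± 0.13 (adjusted p = 0.00449 and 0.0138, the latter lost without Sham 1 or 3, or ICH 2 at adjusted p between 0.0552 and 0.0817). Catalase (Cat) rose by 0.61 ± 0.17 (adjusted p = 0.0303), lost without Sham 1 or 2, or ICH 1 (adjusted p between 0.0731 and 0.118). Ferritin heavy chain (Fth1) rose by 0.46 ± 0.14 and Ugdh by 0.51 ± 0.16 (adjusted p = 0.0469 and 0.0477). Fth1 kept this call only without Sham 2 or EDB 2, and Ugdh only without Sham 3 (adjusted p otherwise between 0.0580 and 0.196). In EDB against Sham Hmox1 (3.78 ± 0.45, adjusted p = 0.00113), Taldo1 (0.61 ± 0.14) and Fth1 (0.61 ± 0.14) rose, the last 2 of which lost the call without Sham 1 or 3, ICH 2, or EDB 1 or 3 (adjusted p between 0.0567 and 0.113). Osgin1, named after its value was seen, fell by 1.21 ± 0.32 in EDB against Sham (adjusted p = 0.0465), a call lost without Sham 1 or 3, ICH 2, or EDB 1, 2 or 3 (adjusted p between 0.0692 and 0.142).

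Slc7a11 is also a target of Atf4, the factor of the amino acid stress response, so a list for that response was read beside it. Of its 11 tested genes 1 rose, 0 fell and 10 were not called in ICH against Sham. The gene that rose was Aldh1l2, a mitochondrial folate enzyme (1.39 ± 0.34, adjusted p = 0.0148, or 0.0513 without Sham 3). Atf4 itself had -0.21 ± 0.12 and the serine synthesis gene Psat1 0.35 ± 0.12 (adjusted p = 0.243 and 0.0773). Trib3 had 1.55 ± 0.68 at levels under 2 CPM, and Shmt2 had 0.18 ± 0.15.

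**Figure D5:**
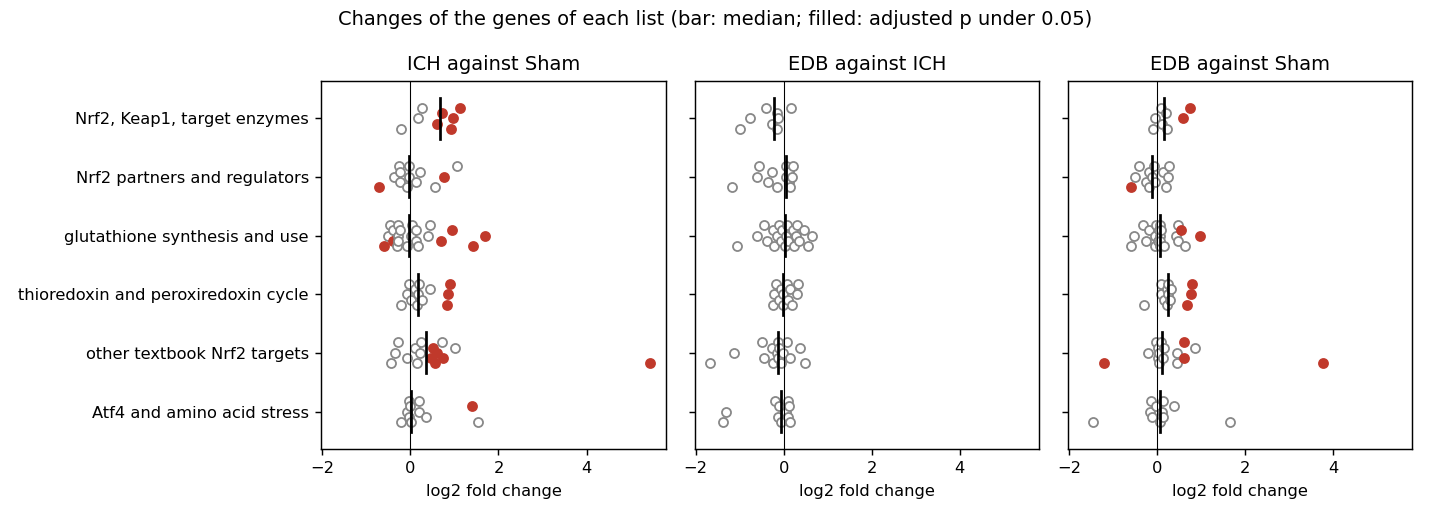
Log2 fold change of each tested gene of the members and the 5 pathway lists in the 3 comparisons, with the list median as a bar. Filled points passed an adjusted p of 0.05, and Hmox1, at 5.45 in ICH against Sham, lies apart from all others.

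The pathway genes farthest along in EDB against ICH were not called by edgeR's test. They are given for the unadjusted p under 0.01 and were chosen after their values were seen. Mgst1 had -1.06 ± 0.22 (adjusted p = 0.0621), Hmox1 -1.67 ± 0.40 (adjusted p = 0.0920), Aldh1l2 -1.31 ± 0.33, Maff -1.18 ± 0.34, Osgin1 -1.14 ± 0.32, Ggt7 0.55 ± 0.16 and Mgst3 0.63 ± 0.17. Mgst1 was called without Sham 2 (adjusted p = 0.0405), as was Mgst3 (adjusted p = 0.0304), and Hmox1 without EDB 1 (-2.29, adjusted p = 0.0221).

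Markers of cell types moved with the same groups. In bulk tissue fewer cells of a type and less RNA per cell cannot be told apart. The 12 microglia and macrophage markers summed to 673 to 780 CPM in Sham, 3113 to 3605 CPM in ICH and 1539 to 2740 CPM in EDB. The 7 monocyte markers summed to 40.6 to 58.0, 434 to 702 and 147 to 218 CPM in Sham, ICH and EDB, and the 9 astrocyte markers to 6833 to 7578, 12453 to 14339 and 9550 to 10586 CPM. Much of the astrocyte difference lay in Gfap, with mean levels of 484, 4918 and 3234 CPM in Sham, ICH and EDB. Of the 9 astrocyte markers, 6 had a positive log2 fold change in ICH against Sham. The other 3 had a negative one, among them S100b (-0.35 ± 0.14). In the summed microglia, monocyte and astrocyte markers, as in every member but Keap1, the group mean was highest in ICH. The 7 neuron markers ran from 1701 to 2063 CPM in Sham, 1318 to 1450 CPM in ICH and 1516 to 1826 CPM in EDB. Striatal projection neuron markers ran from 7192 to 11933 CPM in Sham, 5173 to 6520 CPM in ICH and 7838 to 8746 CPM in EDB, with all ICH libraries lowest. In ICH against Sham 10 of 12 microglia, 5 of 6 tested monocyte and 3 of 9 astrocyte markers rose, beside 11.4% of all genes. There 3 of 7 neuron and 4 of 7 tested projection neuron markers fell, beside 7.3% of all genes. The part of these cell types in the changes of Nfe2l2 and its targets was not tested.

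Oligodendrocyte markers summed to 16678 to 27086 CPM in Sham, 15810 to 31559 CPM in ICH and 37209 to 42916 CPM in EDB. All EDB libraries lay above all others in this sum. Of the 6 markers, 6 were higher without overlap in EDB than in Sham (15.1% of all genes) and 4 than in ICH (11.6% of all genes), though edgeR's test called none of them (adjusted p from 0.0781 to 0.163 against Sham). Endothelial markers, at 255 to 396 CPM in Sham, were lower in all ICH and EDB libraries (190 to 250 and 204 to 219 CPM). In ICH and in EDB 1 of 6 fell against Sham, beside 7.3% and 2.71% of all genes. The part of these sources in the results was not tested. Choroid plexus markers summed to 7312 CPM in EDB 3 and to at most 68.3 CPM in the Sham libraries, and red cell markers ran from 65.8 to 1010 CPM within ICH. Within ICH the haemoglobin gene Hba-a2 was highest in ICH 2, with 997 CPM, and had 129 CPM in ICH 1, where Nfe2l2 and Prdx1 were highest. Without Sham 2, ICH 1 and EDB 3 together, 4 members were called in ICH against Sham, 0 in EDB against ICH and 1 in EDB against Sham. That fit had fewer libraries per group, and the shares of all genes it called are not given beside these counts. They are therefore not to be set against the counts from all libraries.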

How the data were processed

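RNA of rat striatum was sequenced in 9 libraries. The authors deposited whole-number read counts per gene, 1 library per file. The build Rnor_6.0 and the tools HTSeq, HISAT2, cutadapt and limma are named per the submitters' processing notes, with annotation, versions and strandedness not given in the sources used here. From these counts, genes were filtered with filterByExpr by group, which left 14274 of 22890, and library sizes were adjusted by TMM. A single model of all 9 libraries, with 1 coefficient for each group, was fitted with glmQLFit (robust) of edgeR 4.0.16 in R 4.3.3, and groups were compared by its quasi-likelihood F test with Benjamini-Hochberg adjustment. The procedure was tested on simulated data. DESeq2 1.42.0 and limma-voom (limma 3.58.1) were alternatives.

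CPM use TMM-scaled library sizes, and patterns use log2 CPM with a prior count of 2. Intervals are at 95%. The members and lists were chosen with earlier results of these data known. By rule, all members, up to 5 genes of each pathway list with the smallest p in ICH against Sham, genes called in EDB against ICH, and the 3 genes nearest to each member were named, except 1 that is not reported here. Other pathway genes named were chosen after their values were seen. Replicates of a group differed by more than sampling noise (chi-square per degree of freedom from 24.3 to 70.0). RefSeq symbols and promoters are of GRCr8, a different build from the files, and no position was carried between them.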

Additional observations from a re-analysis of the deposited data

How the results depend on the processing

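With 3 libraries per group, several calls lay near the threshold. The number of members called in ICH against Sham (5) ranged from 2 to 4 with 1 library left out, and was 3 with the replicate number as a block. In EDB against Sham (2) it was 1, without Gclm, with 1 library left out, with RLE scaling, library size only, no filter, limma-voom, only the 6 libraries, the block, or without Sham 2, ICH 1 and EDB 3 together. In EDB against ICH (0) it was 1 with DESeq2. Pathway genes called in EDB against ICH (0) numbered 7 with DESeq2, 2 with limma-voom, 1 with only the 6 libraries, 1 with the block and 0 to 2 with 1 library left out. In EDB against Sham (10) they numbered 3 with only the 6 libraries, 4 with the block and 2 to 10 with 1 library left out, and in ICH against Sham (18) 12 to 19.

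Over all genes, EDB against ICH (98 called) gave 696 with DESeq2, 182 with limma-voom, 58 with the block, 198 without the 3 libraries together and 8 to 321 with 1 left out. EDB against Sham (1094) gave 1796 with DESeq2 and 508 to 1661 with 1 left out, and ICH against Sham (2670) gave 1769 to 2624. Signs turned in EDB against Sham for 3 members that were not called: Nfe2l2 (-0.068 to 0.40 with 1 library left out, -0.036 without the 3 together), Slc7a11 (-0.047 to 0.42) and Keap1 (-0.096 to 0.0061). With the block, Slc7a11 (1.12, adjusted p = 0.0615) and Nqo1 (0.59, adjusted p = 0.0565) were not called in ICH against Sham. Between libraries of different groups that share a number, correlations of deviations ran from -0.31 to 0.25, against -0.23 to 0.33 for differing numbers. With 3 libraries per group these values cannot show whether a shared number stands for a batch or a pairing. Nqo1 was not called with RLE scaling (adjusted p = 0.0634) or limma-voom (adjusted p = 0.0589), nor Nfe2l2 with only the 6 libraries (adjusted p = 0.0710). The causes were not tested. Of the 24 nearest genes, 17 stayed with RLE scaling and 14 with library size only. For Keap1 0 of 3 stayed with library size only, and for Txnrd1 1 of 3 with either scaling.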
